A study of Ovis aries with 13 samples.

Results

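BMAL1, a core gene of the circadian clock, and AANAT, an enzyme of melatonin synthesis, were read in the left ventricle of newborn and fetal sheep by 3 of the 15008 probes of an Agilent 1-colour array. BMAL1 had 1 probe and AANAT had 2, found by probe and gene name under the current and older names of both genes, which makes 2 of the 867 genes that could be named on the array. The genes were chosen by their newborn against fetal difference in signal and their spread within each group on these arrays, so those values are given as a description, without a p-value. The newborn group held 7 samples, 4 from females and 3 from males, labelled postnatal day 1 and collected on the day of birth per the treatment protocol. The fetal group held 6 samples at gestational day 142, 2 from females and 4 from males. No treatment, allele or breed is named for either group, and the hour of collection is not given in the labels used here. Each sample of left ventricle was read on 1 array. Of the 13 samples, 9 share 4 animal numbers with another sample of their group, under different letters. Whether such samples come from 1 animal is not stated, so n counts samples and may exceed the number of distinct animals.

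The circadian clock is a feedback loop that runs in most tissues, heart muscle included. BMAL1 pairs with CLOCK, another protein of the bHLH-PAS family, and the pair switches on the PER and CRY genes, whose proteins then block the pair. Melatonin is made mainly in the pineal gland at night: AANAT acetylates serotonin and ASMT methylates the product. Sheep AANAT is held active by binding to 14-3-3 proteins after phosphorylation by the cyclic AMP-dependent kinase.

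The probe sequences are shown because everything reported for these genes rests on them, and because both AANAT probes read nearly the same stretch of the transcript. Capitals mark the 59 bases that the AANAT probes share; each has 1 further base at one end.
BMAL1: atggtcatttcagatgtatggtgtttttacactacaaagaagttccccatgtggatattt
AANAT probe 1: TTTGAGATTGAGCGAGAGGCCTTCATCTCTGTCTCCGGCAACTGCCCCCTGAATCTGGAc
AANAT probe 2: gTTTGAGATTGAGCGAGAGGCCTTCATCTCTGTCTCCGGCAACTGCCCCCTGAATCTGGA
The start positions listed in the files are 287 for AANAT probe 1, 286 for AANAT probe 2 and 2206 for BMAL1. The files give no chromosome position for the 3 probes and name no genome build, so no exon or strand is stated. The BMAL1 probe stands for a sheep transcript contig that the array's annotation matched to pig BMAL1, while the AANAT probes carry the sheep gene's own name. The BMAL1 probe holds 35.0% G and C and the AANAT probes 55.0%. The longest run that the BMAL1 probe shares with any other probe of the array, on either strand, was 14 bases. For the AANAT probes the longest run shared with a probe of another gene was 17 bases.

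Levels are given as the log2 of the background-corrected spot signal minus the log2 of the 75th percentile of that array, so 0 is the brightness of the 75th percentile and -1 is 1 log2 step below it. That percentile lay between 219 and 367 signal units on the 13 arrays. The cardiomyocyte marker MB (myoglobin), the 1 gene of its list with a named probe, was bright on all arrays, at 8.02 to 9.12 in newborns and 8.74 to 9.20 in the fetal group. Between 9410 and 10715 probes were well above background on each array (62.7% to 71.4% of all probes). A probe was tested if it was well above background on at least 6 arrays, which held for 10255 probes, and the 3 probes of BMAL1 and AANAT were well above background, and unsaturated, on all 13. On the first principal component, with 36.8% of the variance, the newborn arrays lay between 10.08 and 35.1, except newborn 6 at -9.00, and the fetal arrays between -29.1 and -20.4. Without newborn 6 the newborn minus fetal difference was -1.28 for BMAL1, 0.58 for AANAT probe 1 and 0.32 for AANAT probe 2, close to the values with it given below.

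BMAL1, which belongs to the activating arm of the clock, was lower in newborn than in fetal ventricles and more uneven among the newborns. The newborn levels ran from -3.13 over a median of -2.36 to -1.30, against -1.48, -1.14 and -0.95 (lowest, median and highest) in the fetal group. Newborn 7 at -3.13 and newborn 3 at -3.06 were the lowest arrays, while newborn 1 at -1.30 lay inside the fetal range. The other 6 newborn arrays lay below every fetal array. Over the array as a whole, 8.54% of the 10139 probes with a value on every array had at least 6 of the 7 newborn arrays below every fetal array. BMAL1 averaged -2.44 ± 0.625 in newborn ventricles (SD, n = 7) and -1.19 ± 0.203 in fetal ventricles (SD, n = 6). The newborn minus fetal difference was -1.25 on the log2 scale, with an SE of 0.242 from the limma fit, a level 2.38-fold lower in newborns. Before scaling, the processed spot signal was 32.7 to 104 units in newborns and 99.8 to 177 units in the fetal group. The BMAL1 spot was dim but measured: its mean signal was 2.71 to 5.96 times the local background on the newborn arrays and 5.47 to 7.81 times on the fetal arrays.

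**Figure D1:**
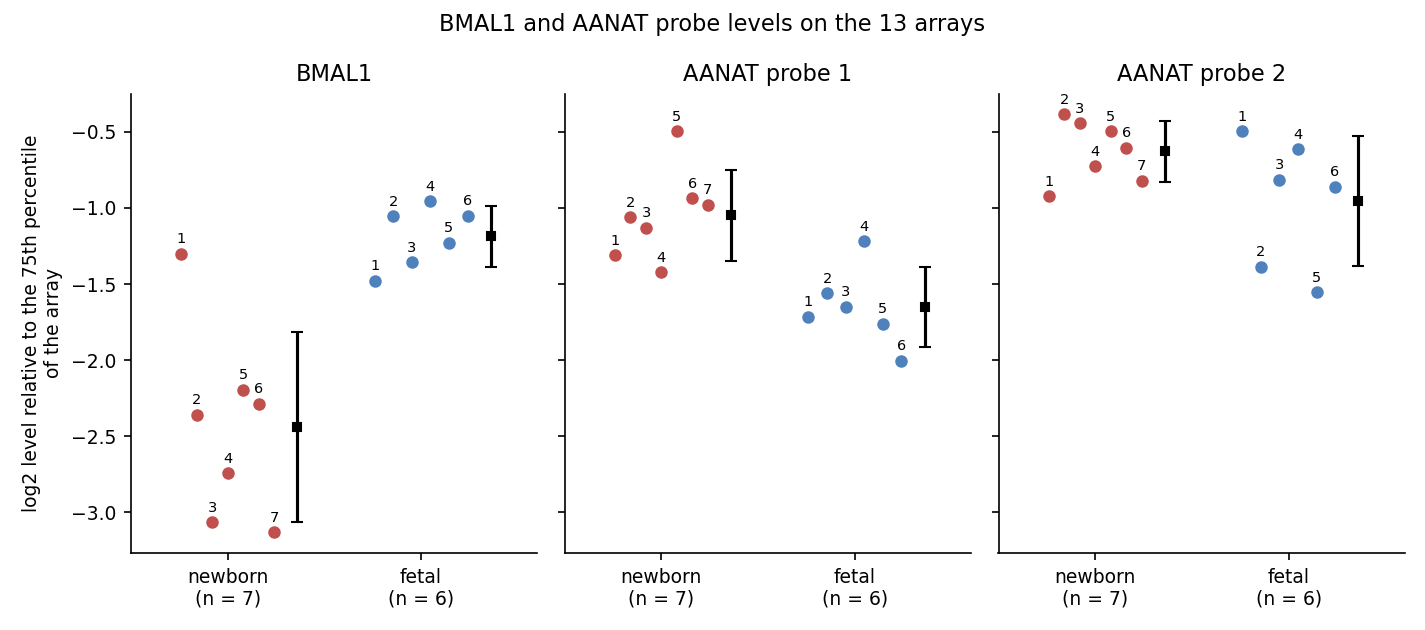
Level of each probe on each of the 13 arrays (y axis, log2 relative to the 75th percentile of the array), newborn left in red and fetal right in blue, with array numbers; black squares and bars are the group mean and SD. For BMAL1, 6 newborn arrays lie below all fetal arrays and newborn 1 lies among them; for AANAT the newborn arrays sit higher on average with overlap.

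The size of the BMAL1 difference depended on how the signal was processed, and which step moved it was not tested. It was -0.72 with normexp correction and -0.52 in the authors' deposited series matrix, against -1.25 from the processed signal. In the series matrix the newborn BMAL1 values ran from 7.06 to 7.83 and the fetal values from 7.71 to 7.98 on the log2 scale, and newborn 1 again was the highest newborn. Within slide 1 (3 newborn and 4 fetal arrays) the difference was -1.03, and within slide 2 (4 newborn and 2 fetal arrays) it was -1.45.

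The spread among newborns was also one of the values BMAL1 was chosen by. The highest newborn level was 3.55-fold the lowest, against 1.44-fold among the fetal arrays, and the newborn SD was 3.08 times the fetal SD. Newborn 1 set the upper end, and the other newborn arrays ran from -3.13 to -2.19. These spreads are of background-corrected log2 levels, where the newborn spots were dim, and SDs under other processing are not given here. The median SD over all tested probes was 0.268 in newborns and 0.211 in the fetal group. Among tested probes, 6.59% had a larger SD than BMAL1 in newborns and 53.0% had one in the fetal group. The spread did not follow the animal numbers in one way. Newborn 1 and newborn 7, which share a number, were the highest and the lowest BMAL1 arrays, 1.83 apart. Newborns 2, 4 and 5, which share another, lay within 0.55 of each other. In the fetal group the arrays that share a number lay 0.43 apart (fetal 1 and 6) and 0.13 apart (fetal 3 and 5). Without newborn 1 the newborn minus fetal difference of BMAL1 was -1.44, and without newborn 7 it was -1.14.

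Markers of other cell types also differed between newborn and fetal ventricles, and in tissue pieces fewer cells of a type and less RNA per cell cannot be told apart. Genes other than BMAL1 and AANAT were tested for age in limma, where 23.1% of all tested probes passed at an adjusted p under 0.05, 12.0% higher and 11.1% lower in newborns. That fit takes the samples as separate animals: 2366 probes passed in it, and 1717 with the animal number as a random block. By the brightest probe of each gene, of 3 tested endothelial markers 2 fell in newborns, the adhesion molecule PECAM1 by 0.51 and the VEGF receptor KDR by 0.46 on the log2 scale. Of the other KDR probes, 1 did not pass (-0.33, limma adjusted p = 0.067). The mean log2 level of these 3 markers ran from -0.50 to 0.16 on the newborn arrays and from -0.11 to 0.27 on the fetal arrays. All 3 tested erythroid markers (HBB, HBBF and AHSP) fell, with a mean level of -1.09 to 0.12 on newborn arrays and 0.24 to 3.03 on fetal arrays. The AHSP probe was well above background on 5 fetal and 2 newborn arrays, so it met the filter mainly through the fetal group. Of 4 tested leukocyte markers the T-cell receptor chains CD3D and CD3E fell, and CD14 and FCER1G of myeloid cells rose. Their mean level ran from -3.42 to -2.55 on newborn arrays and from -2.69 to -1.81 on fetal arrays, and SELP was never well above background. The CD3D probe, like that of AHSP, was well above background on 5 fetal and 2 newborn arrays. The smooth muscle marker CNN1 rose by 1.83, with levels of 3.29 to 6.39 on newborn arrays and 1.86 to 2.84 on fetal arrays. On the brightest probe of each gene none of the 4 tested fibroblast and matrix markers passed, nor did the cardiomyocyte marker MB (-0.34). For the collagen gene COL3A1 the brightest probe gave -0.47 (limma adjusted p = 0.105), while another of its probes passed at -0.37 (adjusted p = 0.0469). Of 2 skeletal muscle markers MYOG rose by 0.91 and TNNC2 did not pass (1.11). The part of these markers in the BMAL1 and AANAT values was not tested.

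AANAT was higher on average in newborn ventricles on both of its probes, with overlap between the groups. The probes share 59 of their 60 bases, so they are 2 readings of nearly the same stretch and not separate evidence. On AANAT probe 1 the newborn levels were -1.42 at the lowest, -1.06 at the median and -0.50 at the highest, against -2.005, -1.68 and -1.22 in the fetal group. Newborn 5 was the highest array and fetal 6 the lowest, and 5 of the 7 newborn arrays lay above every fetal array. The means were -1.05 ± 0.300 in newborns (SD, n = 7) and -1.65 ± 0.260 in the fetal group (SD, n = 6), a difference of 0.60 with an SE of 0.152, or 1.52-fold. On AANAT probe 2 the newborn levels were -0.92, -0.61 and -0.39 (lowest, median and highest), against -1.55, -0.84 and -0.50 in the fetal group. Only 3 of the 7 newborn arrays lay above every fetal array there, and fetal 1 reached the level of newborn 5. Its means were -0.63 ± 0.202 in newborns (SD, n = 7) and -0.95 ± 0.424 in the fetal group (SD, n = 6), a difference of 0.33 with an SE of 0.169, or 1.25-fold. Without fetal 5, the lowest array of probe 2, the difference was 0.21. At least 6 of 7 newborn arrays lay above every fetal array on 9.93% of the probes with a value on every array. Neither AANAT probe reached that count, and the shares of probes with 5 or 3 such arrays were not computed. The processed spot signal of probe 1 was 81.8 to 193 units in newborns and 81.3 to 125 units in the fetal group, and that of probe 2 was 133 to 257 units in newborns and 104 to 197 units in the fetal group. The spread ran opposite ways on the probes: the newborn SD was 1.15 times the fetal SD on probe 1 and 0.476 times on probe 2. Of all tested probes, 10.8% had a larger fetal SD than probe 2, and 35.5% a larger one than probe 1. Newborns 2, 4 and 5, which share an animal number, spanned the whole newborn range of probe 1, 0.93, and lay within 0.34 on probe 2. Fetal 3 and 5, which share another, lay 0.11 apart on probe 1 and 0.74 apart on probe 2.

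The AANAT differences varied in size between the slides and between ways of processing. Each slide holds few arrays, and whether the age difference differs between slides was not tested. Probe 1 gave 0.37 within slide 1, 0.92 within slide 2, and 0.35 both with normexp and in the authors' deposited series matrix. Probe 2 gave 0.24 within slide 1, 0.55 within slide 2, 0.21 with normexp and 0.19 in the series matrix.

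The AANAT probes differ by a shift of 1 base, and the array holds other such pairs to set them against. Probe 2 minus probe 1 ran from -0.00 on newborn 5 to 1.22 on fetal 1. It averaged 0.42 ± 0.280 in newborns (SD, n = 7) and 0.70 ± 0.450 in the fetal group (SD, n = 6). This offset is a difference between 2 spots on an array, not a difference in transcript level. Over the 131 tested pairs of probes that lie 1 base apart on this array, the median size of the mean offset was 0.0878 and the AANAT pair's was 0.547, with 5.34% of pairs larger. The SD of the offset over the 13 arrays was 0.380 for AANAT and 0.172 for the median pair, with 18.3% of pairs larger. With the mean of each age removed, the AANAT probes correlated at r = 0.269 over the 13 arrays, against a median of 0.844 over all pairs. A higher r was seen in 90.1% of pairs. These r values are descriptions of readings that share arrays. The newborn minus fetal differences of the AANAT probes lay 0.277 apart, against 0.0575 for the median pair, and 6.87% of pairs lay further apart.

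**Figure D2:**
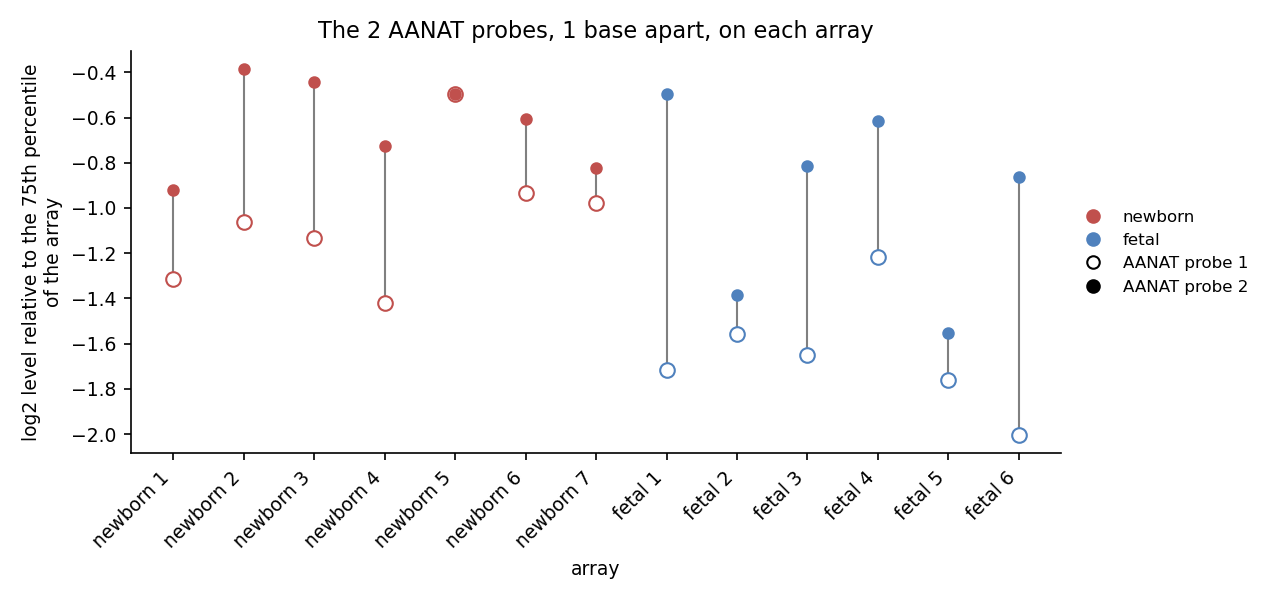
Levels of AANAT probe 1 (open circles) and AANAT probe 2 (filled circles) on each array (x axis; newborn in red, fetal in blue), in log2 relative to the 75th percentile of the array, joined by a grey line. The gap between the probes is near 0 on newborn 5 and reaches 1.22 on fetal 1.

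Sex and slide were not used to choose the genes and could be tested. Male minus female, with age in the model, was -0.22 for BMAL1 (95% interval -0.76 to 0.32), 0.09 for AANAT probe 1 (-0.25 to 0.44) and 0.26 for AANAT probe 2 (-0.10 to 0.62). None passed in limma with Benjamini-Hochberg adjustment over all tested probes (adjusted p = 0.999 for each). Of all tested probes, 0.00975% (1 probe, without a gene name) passed for sex in limma, and 331 probes had an unadjusted p below 0.05. The newborn minus fetal difference of BMAL1 was -1.29 in females (4 newborn and 2 fetal) and -1.31 in males (3 newborn and 4 fetal). For AANAT probe 1 it was 0.73 in females and 0.54 in males, and for AANAT probe 2 it was 0.38 in females and 0.39 in males. The difference between the sexes in this contrast had wide intervals: -1.17 to 1.12 for BMAL1, -0.90 to 0.53 for AANAT probe 1 and -0.75 to 0.77 for AANAT probe 2. None of the 3 probes passed that test in limma (adjusted p from 0.991 to 0.998), and 0% of all tested probes did. Of all tested probes, 507 had an unadjusted p below 0.05 in it. Slide 2 minus slide 1, with age in the model, was -0.16 for BMAL1, -0.03 for AANAT probe 1 and -0.21 for AANAT probe 2. For slide, 0% of all tested probes passed in limma, and 533 had an unadjusted p below 0.05. By chance alone, a share of about 0.05 of the 10255 tested probes has an unadjusted p below 0.05. The unadjusted counts for sex, its interaction with age and slide are therefore not read as results.

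BMAL1 and AANAT did not vary together detectably among samples of 1 age, but groups of 6 and 7 samples cannot show that there is no relation. The AANAT probes, nearly the same in sequence, did not correlate detectably with each other either, which limits this comparison further. Among the 7 newborns BMAL1 and AANAT probe 1 gave Pearson r = -0.03 (exact permutation p = 0.979) and Spearman rho = 0.14 (exact p = 0.783). BMAL1 and AANAT probe 2 gave r = -0.31 (exact p = 0.510) and rho = -0.14 (exact p = 0.783) there. Among the 6 fetal samples the values were r = 0.33 (exact p = 0.531) and rho = 0.26 (exact p = 0.658) with probe 1, and r = -0.23 (exact p = 0.639) and rho = -0.20 (exact p = 0.714) with probe 2. The AANAT probes gave r = 0.43 (exact p = 0.334) and rho = 0.29 (exact p = 0.556) with each other in newborns, and r = 0.20 (exact p = 0.725) and rho = 0.31 (exact p = 0.564) in the fetal group. No adjusted value over these 6 relations was below 0.87 for r or 0.783 for rho. Leaving out the 2 samples farthest from the median moved r for BMAL1 to 0.68 and 0.06 in newborns and to 0.54 and 0.85 in the fetal group, with probes 1 and 2 in that order. For the AANAT pair r then was 0.34 in newborns and -0.09 in the fetal group.

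Of the other clock genes with a tested probe, BHLHE40 was lower in newborns and the rest did not pass. The core clock list holds 23 genes, 9 of them with a named probe. Of all probes 9.36% could be named, so the other listed genes may be on the array without a name. Of the 6 tested genes other than BMAL1, 1 fell in newborns and 0 rose, by an adjusted p under 0.05 in limma. Of all tested probes, 11.1% were lower and 12.0% higher in newborns by the same test. The gene that fell was BHLHE40, a repressor that acts on the promoters BMAL1 and CLOCK activate. BHLHE40 levels were -3.34, -2.61 and -2.43 in newborns (lowest, median and highest), against -2.61, -2.11 and -1.55 in the fetal group. Newborn 4 was the lowest and 3 newborn arrays lay below every fetal array. The share of probes with 3 such arrays was not computed. The BHLHE40 difference was -0.58 (SE 0.178, limma adjusted p = 0.032), and it did not pass with slide as a block (adjusted p = 0.0506), with the animal number as a random block (0.0731), with no filter on dim probes (0.0566) or without any 1 of newborn 4 and fetal 2, 3, 4 and 6 (adjusted p of 0.0514 to 0.0707).

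CLOCK, the dimer partner of BMAL1, averaged -1.41 ± 0.215 in newborns (SD, n = 7) and -1.43 ± 0.161 in the fetal group (SD, n = 6), a difference of 0.01 (SE 0.114, limma adjusted p = 0.945). The groups overlapped, with levels of -1.66 to -1.16 in newborns and -1.61 to -1.21 in the fetal group. PER2, a repressor of the loop, gave -0.06 (SE 0.118, adjusted p = 0.722). CRY1, the partner of the PER proteins, gave 0.31 (SE 0.14, adjusted p = 0.119). A dimmer CRY1 probe, well above background on 11 arrays, gave 0.55 (SE 0.207, limma adjusted p = 0.0656). The kinases that mark PER proteins for breakdown gave 0.23 for CSNK1D (SE 0.111, limma adjusted p = 0.147) and -0.36 for CSNK1E (SE 0.146, limma adjusted p = 0.0845). On CSNK1E 5 newborn arrays lay below every fetal array and newborn 3 above them. The share of probes with 5 arrays so placed was not computed. Without newborn 3 the limma adjusted p was 0.00696 for CSNK1E and 0.0359 for the brightest CRY1 probe, and without fetal 4 it was 0.0421 for that CRY1 probe. PER3 and TIMELESS were well above background on at most 1 array and were not tested. Of the output genes, which the clock drives, 0 of 3 tested passed: DBP gave -0.08, the repressor NFIL3 gave -0.09 and NAMPT, the rate-limiting enzyme of NAD salvage, gave 0.14.

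Of the melatonin pathway genes with a named probe, AANAT alone was well above background on over 2 arrays. Of 19 genes listed for melatonin synthesis, receptors and breakdown, 5 had a named probe and 1, AANAT, was tested. The melatonin receptor MTNR1A, the related receptor GPR50 and CYP1A1, of the cytochrome family that hydroxylates melatonin, were well above background on none of the 13 arrays. The serotonin transporter SLC6A4 was well above background on at most 2. Markers of the pineal gland and retina, the tissues known for AANAT, were as low: CNGA1 and PAX6 were well above background on no array and NEUROD1 on at most 1. The other markers of that list, and ASMT, are not named among the probes used here.

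Sheep AANAT activity depends on 14-3-3 proteins and on cyclic AMP signalling, so genes of both were followed. Of 7 tested regulators 1 fell and 0 rose on the brightest probe, where 11.1% of all tested probes were lower and 12.0% higher in newborns. YWHAH, the 14-3-3 protein eta, had levels of 4.77, 5.18 and 5.30 in newborns (lowest, median and highest), against 5.28, 5.47 and 5.71 in the fetal group. All but newborn 1 lay below every fetal array, and 8.54% of the probes with a value on every array had at least 6 of 7 newborn arrays so placed. The YWHAH difference was -0.37 (SE 0.104, limma adjusted p = 0.0213), or 0.0546 without fetal 5. YWHAE, the 14-3-3 protein epsilon, gave 0.30 on its brightest probe (SE 0.112, limma adjusted p = 0.0656, and 0.0316 without newborn 1), 0.34 on another (SE 0.0946, adjusted p = 0.0189) and 0.16 on the third (SE 0.0993, adjusted p = 0.247). On the second of these, 6 of the 7 newborn arrays lay above every fetal array, as on 9.93% of the probes with a value on every array. The kinase subunits PRKACA (0.14) and PRKAR1A (0.04), the factors CREB1 (0.20) and CREM (0.03), and the beta-1 adrenergic receptor ADRB1 (0.23) did not pass, with adjusted p from 0.231 to 0.923 in limma.

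The bHLH-PAS family, which includes BMAL1 and CLOCK, had 5 further tested genes, of which 1 fell and 0 rose, against the same shares of all tested probes (11.1% lower and 12.0% higher). HIF3A, a family member induced by low oxygen, had levels of -3.83, -2.76 and -2.39 in newborns (lowest, median and highest), against -2.79, -2.15 and -1.96 in the fetal group. Newborns 3, 4 and 6 lay below every fetal array on this brightest probe, and the share of probes with 3 such arrays was not computed. On a dimmer HIF3A probe 6 of the 7 newborn arrays lay so, as at least 6 did on 8.54% of the probes with a value on every array. The HIF3A difference was -0.75 (SE 0.221, limma adjusted p = 0.0257), and -0.72 on the dimmer probe (SE 0.167, limma adjusted p = 0.00831). Leaving out any 1 of newborn 4 and fetal 3, 4, 5 and 6 put the adjusted p of its brightest probe between 0.05001 and 0.0545. ARNT, a paralog of BMAL1 and the partner of HIF1A, gave -0.45 (SE 0.184, limma adjusted p = 0.092). AHR, the dioxin receptor, gave -0.19, and the oxygen-sensing factors HIF1A and EPAS1 gave 0.16 and 0.10, none of which passed. A dimmer EPAS1 probe gave 0.45 (SE 0.158, limma adjusted p = 0.0528), and further EPAS1 probes gave 0.08 and 0.18. On the probe at 0.45, 6 of the 7 newborn arrays lay above every fetal array. At least 6 did so on 9.93% of the probes with a value on every array. Over the 5 lists together, 21 genes other than BMAL1 and AANAT were tested, of which 3 fell and 0 rose on the brightest probe, with a median difference of 0.03. Over all 566 named genes tested, 88 rose and 49 fell with a median of 0.10, and the median over all tested probes was 0.03.

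**Figure D3:**
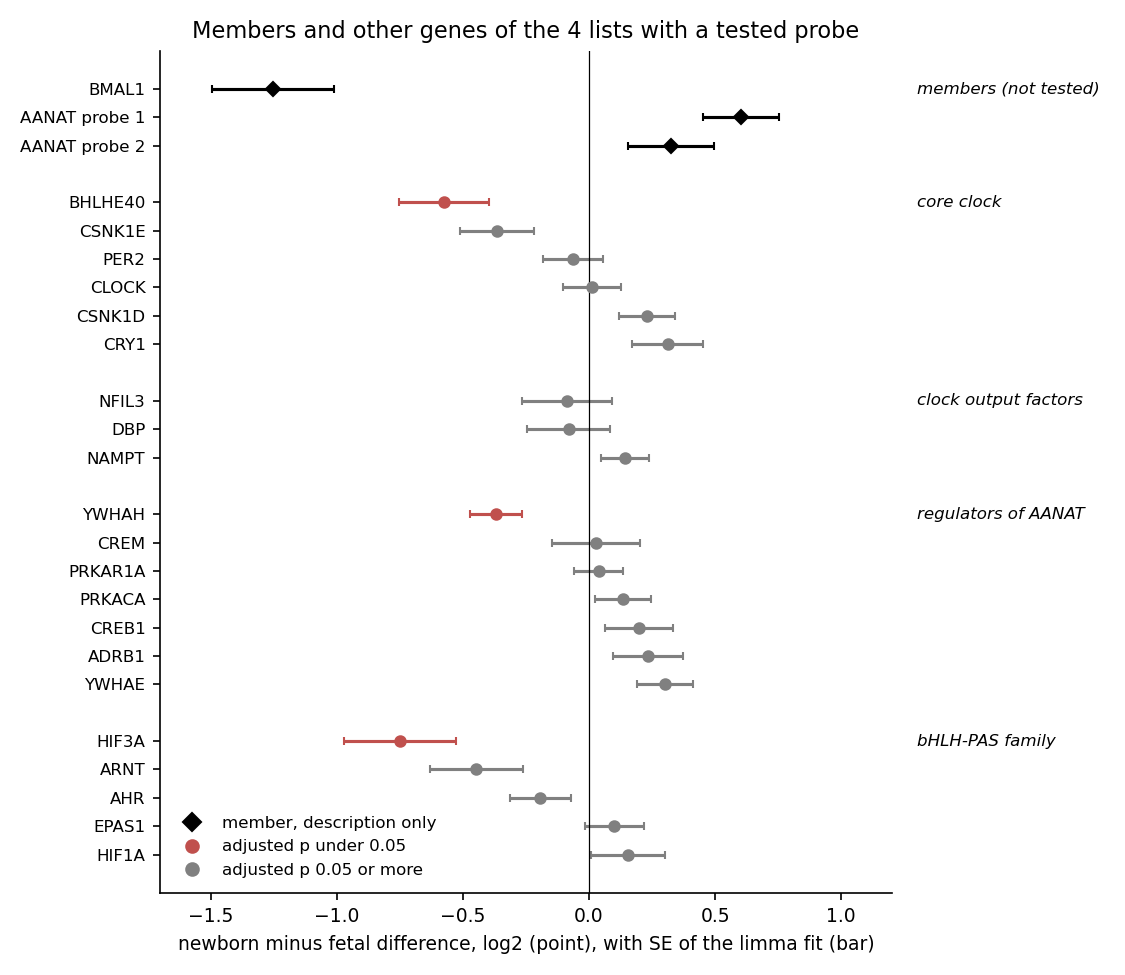
Newborn minus fetal difference (x axis, log2) with the SE of the limma fit for the 3 probes of BMAL1 and AANAT (black, described without a test) and for the tested genes of 4 lists by their brightest probe; red marks an adjusted p under 0.05. BHLHE40, YWHAH and HIF3A are the red points, all left of 0, and BMAL1 at -1.25 lies furthest left.

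Glucocorticoids, which reset clocks in peripheral tissues, rise around birth in sheep, so genes that respond to them were listed as well. Of 6 tested, 2 fell in newborns and 0 rose, where 11.1% of all tested probes were lower and 12.0% higher. The 2 described are those with the smallest p of the list. NFKBIA, the inhibitor of NF-kappa-B, had levels of 0.63, 1.12 and 1.79 in newborns (lowest, median and highest), against 1.87, 2.17 and 2.71 in the fetal group, without overlap. At least 6 of 7 newborn arrays lay below every fetal array on 8.54% of the probes with a value on every array. The NFKBIA difference was -1.08 (SE 0.197, limma adjusted p = 0.00246). CEBPB, a transcription factor, gave -0.53 (SE 0.136, limma adjusted p = 0.0132), with 5 newborn arrays below every fetal array. The share of probes with 5 such arrays was not computed. With normexp background correction none of BHLHE40, YWHAH, HIF3A, NFKBIA and CEBPB passed in limma (adjusted p of 0.0809 to 1.00). Within a single slide, with fewer arrays, NFKBIA passed on slide 1 (limma adjusted p = 0.029), and the other 4 genes on both slides and NFKBIA on slide 2 did not (adjusted p of 0.124 to 0.388).

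The genes that varied most like each probe were ranked by Pearson r over the 13 arrays after each group's mean was removed, among 549 named genes. These r values share arrays and scaling and are descriptions. TIE1, a receptor of endothelial cells, was closest to BMAL1 (r = 0.80), followed by SPA17 (0.79), the lipid droplet protein PLIN2 (0.68), the growth factor BMP4 (0.66) and the retinal dehydrogenase ALDH1A1 (0.66). TIE1 followed BMAL1 at r = 0.96 within the 7 newborns and at r = 0.12 within the 6 fetal samples. The TIE1 difference itself was -0.09 (limma adjusted p = 0.671). ST3GAL4 (r = -0.77), the adhesion molecule ICAM1 (-0.77) and HSD11B2, which inactivates cortisol (-0.75), ran most opposite to BMAL1. The brightest HSD11B2 probe was well above background on only 9 of the 13 arrays (4 newborn and 5 fetal). Of the clock and output genes, CLOCK was at r = 0.55 with BMAL1, PER2 at 0.43, CRY1 at 0.31, BHLHE40 at 0.08, NFIL3 at -0.23, DBP at -0.28 and CSNK1E at -0.48. Among the nearest genes to AANAT probe 1 were BCAT1 (0.78), IL3 (0.73) and GABPA (0.67), and the most opposite were AURKA (-0.80), LYZ (-0.71) and TRAF3 (-0.60). The nearest genes to AANAT probe 2 were TLR7 (0.91), GATA3 (0.88), JUNB (0.86), CREB1 (0.84) and FXYD6 (0.82), and the most opposite were FST (-0.78), CD40 (-0.69) and CD93 (-0.66). Of the 8 genes ranked for each AANAT probe, 0 were shared.

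**Figure D4:**
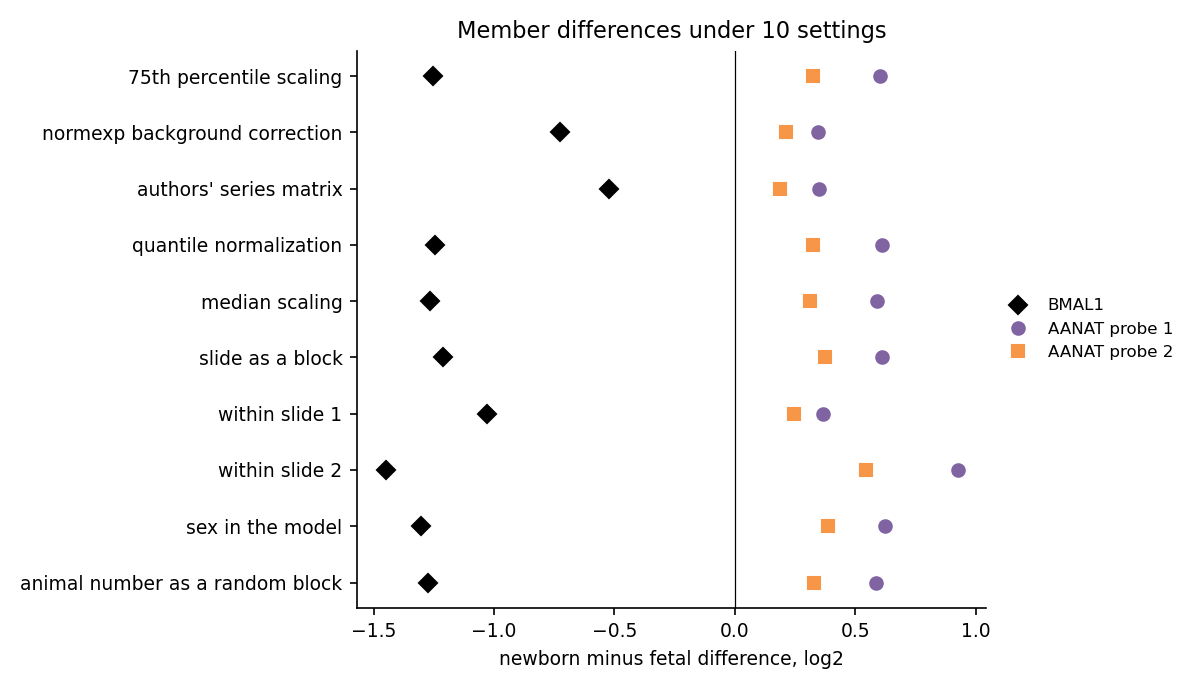
Newborn minus fetal difference (x axis, log2) of BMAL1 (diamonds), AANAT probe 1 (circles) and AANAT probe 2 (squares) under 10 settings (rows). BMAL1 stays left of 0 and both AANAT probes right of 0 under these 10 settings, with BMAL1 nearest to 0 in the authors' series matrix (-0.52).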

How the data were processed

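The scanner files hold intensity values per spot, made by the authors with Agilent Feature Extraction 10.1.1.1, per the file headers; the processed intensity is background-subtracted and detrended within the array. The deposited series matrix holds log2 values of 7041 probes, judged from the values, with normalization not given in the sources used here. Labelling was with Cy3 per the labels' protocols, while a label field names Cy5; the files hold 1 green channel. Control spots and outlier spots were left out. The log2 processed intensity minus the log2 75th percentile of each array was fitted with limma 3.58.1 (R 4.3.3, lmFit and eBayes, two-sided), Benjamini-Hochberg adjusted over 10255 probes, threshold 0.05. Probes were named from the files through the RefSeq sheep gene table (assembly ARS-UI_Ramb_v3.0, used for names only): 1405 of 15008 (9.36%) had 1 gene, 22 through their description. Of several probes of a gene, the brightest stood for it. Named were BMAL1 and AANAT, list genes with a probe, the 2 glucocorticoid-responsive genes with the smallest p, and the 5 nearest and 3 most opposite genes, some of which are not reported here; cell type markers come from lists. Members and lists were chosen with earlier results of these data known. The steps were tested on simulated data. Newborn and fetal arrays of the same replicate number did not deviate together (r of -0.07 to 0.05), and the main fit did not pair them. These r values cannot show whether such samples were collected together. P-values measure the spread between these samples, some of which share an animal number and may not be separate animals. Correlations used exact permutation tests (scipy 1.17.1). The number of arrays limits the precision. Alternatives were background correction, scaling, filters, slide, sex, replicate and animal number, a trended robust eBayes and leaving out each array.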

Additional observations from a re-analysis of the deposited data

Results flagged for a closer look

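In 46 groups of values (23 list genes in 2 ages), the array farthest out was compared with the others by Dixon's test, which chance flags in about 1 of 20 groups, and 4 were flagged. BHLHE40 on newborn 4 was at -3.34, with the other newborns between -2.74 and -2.43. CRY1 on newborn 3 was at -1.80, with the others between -1.35 and -1.07. HIF3A on fetal 1 was at -2.79, with the other fetal arrays between -2.24 and -1.96. YWHAH on newborn 6 was at 4.77, with the other newborns between 5.11 and 5.30.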

How the results depend on the processing

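BMAL1 stayed lower and both AANAT probes higher in newborns under every alternative run. The genes were chosen on this contrast in these arrays, so the constant direction is a description and not support. The changed filters and the trended robust eBayes cannot move these differences. BMAL1 moved to -0.72 with normexp background correction and -0.52 in the series matrix, and AANAT probe 1 to 0.92 within slide 2. Leaving out each array in turn gave -1.44 to -1.14 for BMAL1, 0.51 to 0.69 for AANAT probe 1 and 0.21 to 0.42 for AANAT probe 2. The cause of these shifts was not tested.

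The number of probes passing for age was 2366 in limma, 49 with normexp, 356 within slide 1 and 23 within slide 2 (fewer arrays), and 1727 to 3116 without 1 array (3116 without newborn 6). For sex it was 1, and 0 with normexp or when probes had to be well above background on all arrays. For the interaction it was 0, and 0 to 2 without 1 array (2 without fetal 2, 1 without newborn 3 and without newborn 4).

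With the replicate number as a block (replicate block), 1326 probes passed for age; BHLHE40 (adjusted p = 0.0575), HIF3A (0.0651) and YWHAH (0.0781) no longer passed, and BMAL1 was at -1.14. With the animal number as a random block (correlation 0.178), 1717 probes passed for age, and BHLHE40 was at a limma adjusted p of 0.073.

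Direction turned only for differences that never passed. With normexp, which moved the median sex difference of all probes to -0.18, the sex difference of AANAT probe 1 was -0.17 and the interaction 0.013 for BMAL1 and 0.14 for AANAT probe 1. The interaction of AANAT probe 2 was -0.010 with quantile normalization and -0.014 with slide as a block. Without 1 array it ran from -0.29 to 0.32 for BMAL1, -0.41 to 0.036 for AANAT probe 1 and -0.25 to 0.27 for AANAT probe 2, and the sex difference of AANAT probe 1 from -0.0014 to 0.20. With normexp ADRB1 was at -0.015, CREM at -0.020, DBP at 0.015 and EPAS1 at -0.056, and r of BMAL1 was 0.53 and 0.51 with AANAT probes 1 and 2 in newborns and 0.26 with probe 2 in the fetal group. Within slide 2 CREM was at -0.27 and NFIL3 at 0.17. CLOCK was at -0.00047 with median scaling. PRKAR1A was at -0.013 with quantile normalization, -0.022 in the series matrix and -0.12 within slide 1. Without 1 array CLOCK ran from -0.029 to 0.057, CREM from -0.054 to 0.14, DBP from -0.19 to 0.00090, NFIL3 from -0.17 to 0.015 and PRKAR1A from -0.0050 to 0.081. With normexp none of BHLHE40, HIF3A, YWHAH, NFKBIA and CEBPB passed (adjusted p of 0.081 to 1.00).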
